A study of Mus musculus with 6 samples.

Results

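The transcripts described here are 10 genes of macrophage inflammation: the cytokines Tnf, Il1a, Il1b, Il1rn, Il18, Il6, Il10 and Tgfb1, the inflammasome sensor Nlrp3 and the protease Casp1. They were taken by symbol from the deposited gene table, where each matched 1 of 56636 genes. The libraries came from RAW264.7, a mouse macrophage-like line transformed with Abelson leukemia virus, labelled as wild type. There were 3 libraries from cells kept with vehicle for 24 h and 3 from cells kept with a compound abbreviated 25-HC for 24 h, both in serum-containing medium. Neither a dose nor a full name of the compound is stated by the labels, which also do not say whether each library is its own culture, so the tests see only library-to-library spread, which may be technical. The series title places the samples in a study of miR-9-5p from cancer cells and of cholesterol homeostasis.

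Tumour necrosis factor and the interleukin-1 family are the early alarm signals of macrophages. TNF is made as a membrane protein and shed by the protease ADAM17, whereas IL-1β and IL-18 are made as inactive precursors that caspase-1 cuts once an inflammasome such as NLRP3 has assembled. Transcription of Tnf, Il1b, Il6 and Nlrp3 is driven largely by NF-kB below Toll-like receptors, IL1RN blocks the IL-1 receptor, and IL-10 and TGF-β1 restrain inflammation.

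Values are TPM, transcripts divided by their length and scaled to a common library total, and sequencing depth is unknown. The division by length is meant to let levels be compared between genes. In vehicle 1 and 2, however, a trend with transcript length remained, as given below, so comparisons between genes are less sure there. The vehicle libraries differed from each other more than the treated ones. Vehicle 1, 2 and 3 held 11238, 9492 and 11994 genes at 1 TPM or more, against 11971 to 12005 in the 25-HC libraries. In vehicle 2 the longest sixth of the transcripts lay at a median log2 difference of -1.63 from the 25-HC mean and the shortest sixth at -0.05, in vehicle 1 at -0.78 and 0.18, and in vehicle 3 at 0.04 and 0.05. Of the 12 macrophage markers examined, 8 (Adgre1, Cd68, Csf1r, Lyz2, Cd14, Fcgr1, Spi1 and Tyrobp) were at 1 TPM or more in every library and Mertk was listed at 0. The markers summed to 2530 to 3410 TPM in vehicle and 3420 to 3480 TPM in 25-HC. Neutrophil, dendritic cell, fibroblast and epithelial markers summed to at most 2.65 TPM in any library. T and B cell markers summed to 56.4 to 156 TPM in vehicle and 179 to 186 TPM in 25-HC, of which only Ighm reached 1 TPM, with Cd3g listed at 0; its part in the results was not tested. Fewer cells of a type and less RNA per cell cannot be told apart in such bulk samples.

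No member passed the test between 25-HC and vehicle on the deposited values, and the transcripts differed far more in level from each other than between treatments. Tnf had the highest mean of the 10 in both groups, although Tgfb1 exceeded it in vehicle 2. Il1b reached at most 5.82 TPM, and Il1a, Il6 and Il10 stayed under 1 TPM in every library. Within a library, however, Il1b took a smaller share relative to Tnf and to its antagonist Il1rn after 25-HC, with no overlap between the groups. The ratio to Tnf was at 0.425 of that in vehicle (exact two-sided permutation test, adjusted p = 0.167). With 3 libraries against 3 this test gives no p under 0.1, so no ratio could pass 0.05. How often other pairs of genes separate in this way was not counted. The fit took genes averaging 1 TPM or more across libraries, which left 7 of the 10 members. With limma and Benjamini-Hochberg adjustment over all 12092 genes, 0 of the 7 passed an adjusted p of 0.05, and adjusted p ran from 0.39 to 0.769. The same fit called 0.00827% of all genes higher (1 gene, the small nucleolar RNA Snord16a) and 0.0% lower. None of the 7 had an unadjusted p under 0.05, against 8.24% of all genes higher and 2.94% lower at that level.

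The promoters of Tnf, Il1b, Il6 and Il1rn are shown because these are the member with the highest mean level, the one with the smaller share after 25-HC, a nearly silent one, and the natural antagonist. Each runs from 250 bases before the RefSeq start site of the GRCm38.p6 table up to that site, 5′ to 3′ on the strand of the gene, with matches to the motifs named below in capitals. Tnf lies at chr17:35202008-35202257 on the minus strand, Il1b at chr2:129371140-129371389 on the minus strand, Il6 at chr5:30012864-30013113 on the plus strand, and the first of the 3 listed starts of Il1rn at chr2:24336610-24336859 on the plus strand.
Tnf: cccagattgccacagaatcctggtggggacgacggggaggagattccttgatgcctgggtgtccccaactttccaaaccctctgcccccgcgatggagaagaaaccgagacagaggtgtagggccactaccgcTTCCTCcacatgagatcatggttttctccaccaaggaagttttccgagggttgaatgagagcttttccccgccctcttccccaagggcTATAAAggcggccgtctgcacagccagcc
Il1b: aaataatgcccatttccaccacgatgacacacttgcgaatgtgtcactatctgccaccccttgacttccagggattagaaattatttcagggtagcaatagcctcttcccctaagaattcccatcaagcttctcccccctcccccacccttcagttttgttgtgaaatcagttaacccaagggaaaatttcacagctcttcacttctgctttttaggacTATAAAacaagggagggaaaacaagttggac
Il6: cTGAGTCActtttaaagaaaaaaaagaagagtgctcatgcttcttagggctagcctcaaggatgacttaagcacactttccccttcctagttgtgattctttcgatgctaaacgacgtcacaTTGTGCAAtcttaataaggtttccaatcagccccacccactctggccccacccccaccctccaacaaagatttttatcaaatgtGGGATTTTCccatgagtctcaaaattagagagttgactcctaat
Il1rn: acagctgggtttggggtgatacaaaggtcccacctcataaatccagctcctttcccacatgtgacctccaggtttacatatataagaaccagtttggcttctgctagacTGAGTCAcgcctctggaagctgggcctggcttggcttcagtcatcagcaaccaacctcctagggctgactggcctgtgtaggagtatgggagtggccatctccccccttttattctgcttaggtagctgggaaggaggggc

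Windows that also take in 50 bases after the start were found for 9 of the 10 genes (12 windows; Il10 is the other member), and 7 motifs were searched on both strands. The TATA box TATAAA stood 29 bases before the start of Tnf, 31 before that of Il1b and 32 before that of Il1a. With a reversed match upstream of Il18 and one after a later start of Il1rn, windows of 5 of the 9 genes held it, against 13.6% of all 32851 windows in the table. The NF-kB motif GGGANTTTC was found for Il6 alone, 44 bases before its start, and in 1.11% of all windows. Il6 also held the AP-1 motif TGANTCA and the C/EBP motif TTGCNNAA, found in 7.81% and 10.8% of all windows, and AP-1 matched Il1a and Il1rn too. The PU.1 motif GAGGAA (28.3% of all windows) matched Tnf, Il1a, Nlrp3 and Casp1. No match overlapped another. CRE (TGACGTCA, 1.79%) and the interferon element (GAAANNGAA, 8.56%) matched no member. These are matches of letters in short windows, and looser sites were not searched.

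**Figure D1:**
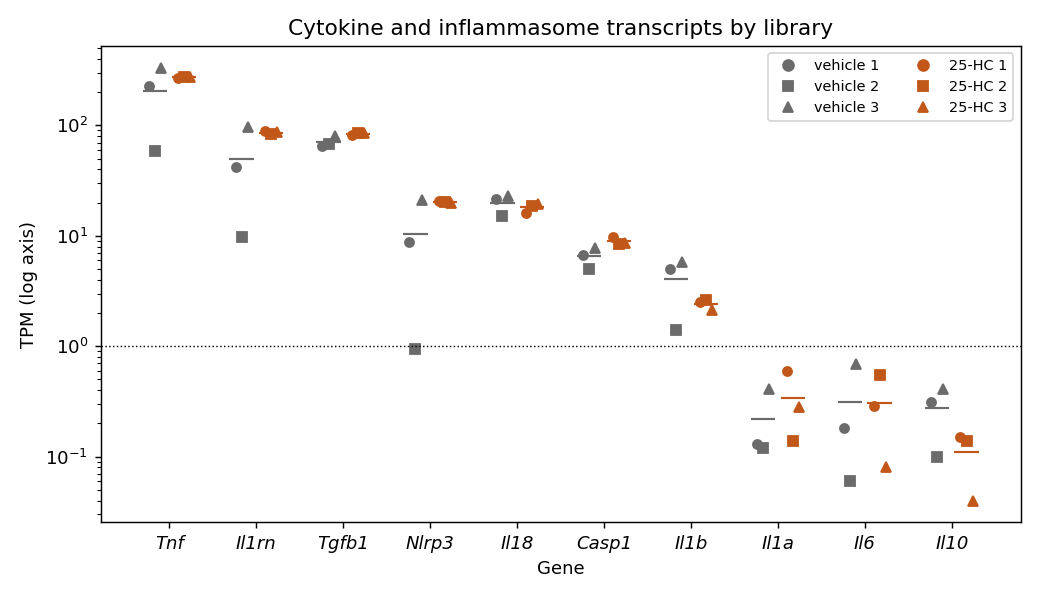
TPM of the 10 genes in each library on a log axis, with vehicle in grey, 25-HC in orange, 1 symbol per replicate number and the group mean as a bar. The dotted line marks 1 TPM. Vehicle 2 lies lowest for every gene except Tgfb1 and Il10, and the 3 genes on the right stay under the line in all libraries.

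Among the secreted pro-inflammatory cytokines, Tnf reached 226, 59.2 and 334 TPM in the vehicle libraries 1, 2 and 3, and 271, 274 and 274 TPM were measured in 25-HC 1, 2 and 3. The treated libraries were even and lay inside the range of the vehicle libraries, with vehicle 2 low and vehicle 3 above all others. The log2 difference of 0.72 (SE 0.62, limma adjusted p = 0.453) became -0.0098 when vehicle 2 was left out. Il1b, the inflammasome substrate, was at 5.02, 1.40 and 5.82 TPM in the vehicle libraries and 2.51, 2.65 and 2.14 TPM in the treated libraries, so that it stood under vehicle 1 and 3 in each treated library and above vehicle 2. Its log2 difference was -0.43 (SE 0.45, limma adjusted p = 0.52). Il1a, the membrane-bound agonist of the same receptor, measured 0.13, 0.12 and 0.41 TPM with vehicle and 0.60, 0.14 and 0.28 TPM with 25-HC. Il6, the inducer of the acute phase response, was at 0.18, 0.06 and 0.69 TPM in the vehicle libraries and 0.29, 0.55 and 0.08 TPM in the treated libraries. The groups overlapped for both of these, and at 2 decimals and this level no difference could be read.

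Il18, the other caspase-1 substrate among the cytokines, measured 21.8, 15.1 and 22.9 TPM with vehicle and 16.1, 18.7 and 19.5 TPM with 25-HC. It was the member with the smallest difference relative to its own error (log2 difference -0.12, SE 0.28, limma adjusted p = 0.769). Its level exceeded that of Il1b in all 6 libraries, by group means of 19.9 ± 4.25 against 4.08 ± 2.36 TPM with vehicle (SD, n = 3) and 18.1 ± 1.77 against 2.43 ± 0.264 TPM in 25-HC (SD, n = 3).

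The restraining cytokines ran from the most even member to one of the most scattered. Tgfb1 was at 64.6, 67.9 and 80.2 TPM in the vehicle libraries and 82.0, 85.1 and 85.3 TPM in the treated libraries, a 1.19-fold difference of the means without overlap (log2 difference 0.25, SE 0.20, limma adjusted p = 0.438). Against vehicle 3 the ratio was 1.05, and after median-ratio rescaling, which divides each library by 1 factor, Tgfb1 overlapped at 0.695-fold. Il1rn measured 42.1, 9.86 and 97.2 TPM with vehicle and 88.5, 83.3 and 86.5 TPM with 25-HC. Vehicle 2 and vehicle 3 differed 9.86-fold, while the treated libraries stayed within 1.06-fold of each other and under vehicle 3 (log2 difference 1.28, SE 0.77, limma adjusted p = 0.394). The difference was 0.42 without vehicle 2 and 2.01 without vehicle 3. Il10 was at 0.31, 0.10 and 0.41 TPM in the vehicle libraries and 0.15, 0.14 and 0.04 TPM in the treated libraries, with overlap between vehicle 2 and the treated libraries.

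For the inflammasome itself, Nlrp3 measured 8.73, 0.94 and 21.3 TPM with vehicle and 20.5, 20.1 and 19.8 TPM with 25-HC. The vehicle libraries spanned 22.6-fold and the treated ones 1.04-fold, and vehicle 3 lay above all treated libraries. The log2 difference of 1.5 (SE 0.86, limma adjusted p = 0.39) was 0.52 without vehicle 2 and -0.075 against vehicle 3 alone. At 4021 bases Nlrp3 has the longest transcript of the 10, and the lower level of long transcripts in vehicle 1 and 2 given above moves with it; after correction for length its difference was 0.81, and the part of length in the result was not tested further. Casp1 was at 6.70, 5.00 and 7.79 TPM in the vehicle libraries and 9.80, 8.46 and 8.59 TPM in the treated libraries, higher without overlap by 1.38-fold (log2 difference 0.42, SE 0.28, limma adjusted p = 0.399). Its values overlapped after median-ratio rescaling, at 0.864-fold.

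Counted over the tested members, the 25-HC libraries lay wholly above the vehicle libraries for 2 of 7 (Tgfb1 and Casp1) and wholly below for 0. Of all genes tested, 22.6% lay above and 8.1% below, so the share of the members was near the background. After median-ratio rescaling the picture turned: 0 members lay above and 2 below (Il1b and Il18), against 18.4% and 18.1% of all genes. The rescaled values of Il1b were 5.19, 3.31 and 4.42 in vehicle and 1.98, 2.13 and 1.69 in 25-HC. Those of Il18 were 22.5, 35.6 and 17.4 in vehicle and 12.6, 15 and 15.4 in 25-HC. Quantile normalization also put 2 members wholly below (17.3% of all genes), as did leaving out vehicle 2 (16.9% of all genes), and correction for transcript length put 1 there (Il1b; 18.7% of all genes). Without vehicle 3, the only vehicle library free of the length trend, 5 of the 7 lay wholly above, with 59.5% of all genes doing the same. The median log2 difference of the 7 was 0.42 as deposited and -0.14 after median-ratio rescaling, against 0.52 and 0.013 over all genes tested.

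**Figure D2:**
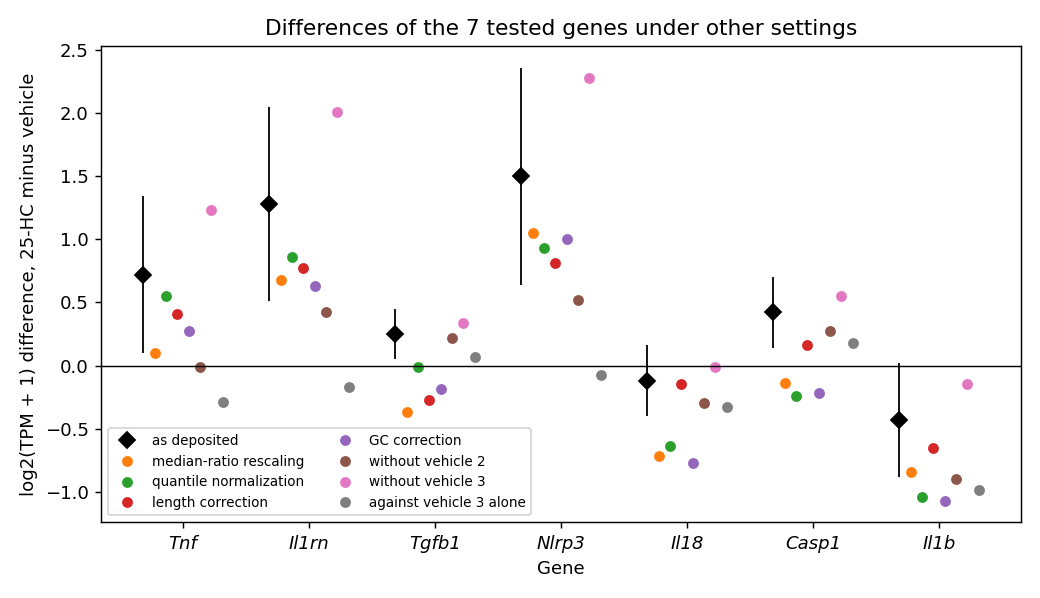
Difference in log2(TPM + 1) between 25-HC and vehicle for the 7 tested genes, as deposited (diamond, with its standard error) and under 7 other settings (circles). Il1b and Il18 lie below 0 in each setting drawn, Tnf, Il1rn and Nlrp3 lie below 0 against vehicle 3 alone, Tnf also by -0.0098 without vehicle 2, and Tgfb1 and Casp1 change sign with the scaling.

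Il1b and Il18 kept the sign of their differences, which were small beside their errors as deposited (-0.43, SE 0.45, and -0.12, SE 0.28). The settings rework the same 6 libraries, so the counts of settings below are not independent support. The share of all genes that keep 1 sign over these settings was not taken. The difference of Il1b was negative in the 15 other settings that gave a value (a filter of 5 TPM removes it), from -0.15 without vehicle 3 to -1.07 after correction for GC content, and that of Il18 in all 16, from -0.0094 without vehicle 3 to -0.77. The positive members were less steady: Nlrp3 and Il1rn were positive in 15 of 16 settings, Tnf in 14, Casp1 in 13 and Tgfb1 in 12. None of the 7 passed an adjusted p of 0.05 in any of the 15 settings that had a test.

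Ratios of 2 transcripts within a library do not move with the scaling of that library, so 5 pairs were compared. The share of all pairs of genes whose ratios separate the groups was not taken, so a separation below has no background beside it. The ratio of Il1b to Tnf was 0.0222, 0.0236 and 0.0174 in vehicle 1, 2 and 3 and 0.00925, 0.00968 and 0.0078 in the 25-HC libraries. Each treated library lay below each vehicle library, vehicle 2 included, and the mean log2 ratio was -5.58 ± 0.23 in vehicle and -6.82 ± 0.16 in 25-HC (SD, n = 3 each), a difference of -1.24 (exact two-sided permutation test, p = 0.1, adjusted p = 0.167 over the 5 ratios). That p is the smallest that 3 libraries against 3 can give. Relative to Tnf, Il1b was thus at 0.425 of its vehicle share, and the difference ran from -0.95 to -1.96 in 12 other settings. The transcripts have 1356 bases for Il1b and 1639 for Tnf, and a GC content of 46.3% and 52.1%. Corrected for length the difference was -1.14 and corrected for GC content -1.42. The part of length and GC content in this ratio was not tested further.

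The ratio of the antagonist Il1rn to its competitor Il1b was 8.39, 7.04 and 16.7 in vehicle and 35.3, 31.4 and 40.4 in 25-HC. All treated libraries were higher than all vehicle libraries, by 1.83 on the log2 scale or 3.57-fold (exact two-sided permutation test, p = 0.1, adjusted p = 0.167). Against vehicle 3 alone the log2 difference was 1.09, and over 12 other settings it ran from there to 2.28. Il1rn is the longer transcript, at 2554 bases, and the log2 difference was 1.54 after correction for length. The part of length in this ratio was not tested further either.

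Il18 relative to Casp1 was 3.25, 3.01 and 2.94 in vehicle and 1.64, 2.20 and 2.26 in 25-HC, again without overlap (log2 difference -0.61; exact two-sided permutation test, p = 0.1, adjusted p = 0.167). It lost that separation after correction for length, where the log2 difference was -0.37 (exact permutation p = 0.3), and after quantile normalization, at -0.41 (exact permutation p = 0.2). The groups overlapped for Nlrp3 relative to Casp1, at 1.30, 0.188 and 2.73 in vehicle and 2.09, 2.38 and 2.30 in 25-HC (exact permutation p = 0.4, adjusted p = 0.4), and for Il1a relative to Il1b (exact permutation p = 0.3, adjusted p = 0.375). Where 2 of these pairs share Il1b or Casp1 they are not independent of each other.

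**Figure D3:**
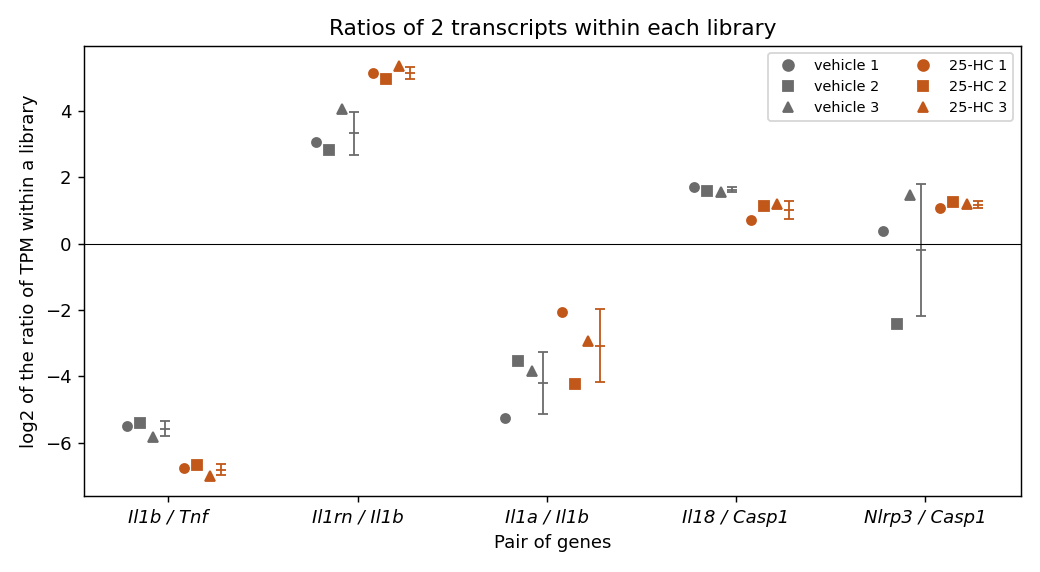
Log2 of the ratio of TPM of 2 genes within each library, vehicle in grey and 25-HC in orange, with 1 symbol per replicate number and the mean with its SD (n = 3) beside the points. For Il1b to Tnf, Il1rn to Il1b and Il18 to Casp1 the groups do not overlap; for the other pairs they do.

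In order of level, the 25-HC libraries gave Tnf (273 ± 1.54 TPM, SD, n = 3), Il1rn (86.1 ± 2.62), Tgfb1 (84.1 ± 1.88), Nlrp3 (20.1 ± 0.36), Il18 (18.1 ± 1.77), Casp1 (8.95 ± 0.739), Il1b (2.43 ± 0.264), Il1a (0.34 ± 0.236), Il6 (0.307 ± 0.235) and Il10 (0.11 ± 0.0608). Neighbours overlapped only between Il1rn and Tgfb1 and among Il1a, Il6 and Il10. In vehicle the order was Tnf, Tgfb1, Il1rn, Il18, Nlrp3, Casp1, Il1b, Il6, Il10 and Il1a, and every pair of neighbours overlapped except Il1b and Il6. Nevertheless Il18 exceeded Nlrp3, and Casp1 exceeded Il1b, in 3 of 3 vehicle libraries. The part of the length trend of vehicle 1 and 2 in the vehicle order was not tested.

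Likeness of profile was taken as the root mean square difference of centred log2(TPM + 1) values over the 6 libraries, where 0 is an identical profile. It used the deposited values, so the spread of the vehicle libraries and the length trend of vehicle 1 and 2 enter it. Their part in the distances was not tested. The usual distance between 2 tested genes was not taken, so the distances between members have no background beside them. Between members it was smallest for Il1rn and Nlrp3, at 0.158, and next for Tgfb1 and Casp1, at 0.174, while Il18 and Nlrp3 were farthest apart, at 1.18. Il1b was nearer to Il18 (0.355) than to Tnf (0.645) or Il1rn (0.987). Among all genes tested, the nearest to Tnf were Taf6, Tbc1d10a and Pgd (0.0375 to 0.043), and the nearest to Il1rn were Hnrnpul1, Usp12 and Bub1b (0.0232 to 0.035). Nlrp3 was nearest to Pgam5, Chp1 and Hmgxb3 (0.0341 to 0.0492), Tgfb1 to Yipf1, Cdkn2aipnl and Usp3 (0.0333 to 0.0426), Casp1 to Mapkap1, Ankhd1 and Gnptg (0.0439 to 0.0691) and Il18 to Ier3ip1, Ppp2r3c and Ehbp1l1 (0.0394 to 0.0557). No gene came as near to Il1b: Gm7247, Lyar and Hbegf stood at 0.0776, 0.105 and 0.143. Lyar measured 85.8, 36.1 and 83.0 TPM with vehicle and 49.5, 52.5 and 46.2 TPM with 25-HC, and Hbegf, an epidermal growth factor receptor ligand, at 1.65, 0.42 and 2.89 TPM and 0.93, 0.83 and 0.76 TPM.

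The genes around the members were read from 10 lists of ligands, receptors, processing and signalling. None of these genes passed the test (smallest limma adjusted p in each list 0.389, or 0.639 for the other IL-1 family ligands). Low genes enter the tested set more easily when they are high in either group. The counts without overlap below are to be read against all genes tested, of which 22.6% lay wholly above and 8.1% wholly below vehicle as deposited, and 18.4% and 18.1% after median-ratio rescaling. For the TNF superfamily, 5 of 16 ligands were tested. Of these, 2 lay wholly above and 1 wholly below vehicle (median log2 difference 0.29), or 1 and 1 after median-ratio rescaling (median -0.34). The ligand below was Lta in both scalings, named after its values were seen. It averaged 1.72 TPM with vehicle and 0.993 TPM with 25-HC and entered the tested set only through its vehicle values. Ltb, a membrane partner of lymphotoxin, was at 118 ± 26.4 TPM with vehicle and 141 ± 0.811 TPM with 25-HC (SD, n = 3 each). Tnfsf9, the 4-1BB ligand, was at 17.5, 2.18 and 25.6 TPM in the vehicle libraries and 43.9, 46.3 and 45.7 TPM in the treated libraries, above vehicle also after median-ratio rescaling (2.53-fold). Of 6 tested genes of TNF shedding and TNF receptors (7 listed), 1 lay wholly above and 0 below (median 0.99), or 1 and 1 after rescaling (median 0.49). The gene above as deposited was Adam17, which releases soluble TNF, at 7.90, 0.56 and 24.7 TPM with vehicle and 34.4, 31.0 and 35.6 TPM with 25-HC (limma adjusted p = 0.389). Tnfrsf1a, the main TNF receptor, overlapped at 20.3 ± 13.7 and 31.4 ± 1.71 TPM. In the TNF receptor signalling complex, 19 of 20 genes were tested, 3 lay wholly above and 1 wholly below with a median of 0.23, or 3 and 4 after rescaling with a median of -0.39. Tab2, an adaptor of the kinase TAK1, measured 3.24, 0.66 and 7.5 TPM with vehicle and 12.6, 12.0 and 10.9 TPM with 25-HC. Ripk3, the necroptosis kinase, was at 85.9 ± 22.6 and 69.1 ± 2.04 TPM, and Rbck1, a subunit of the linear ubiquitin ligase, at 58.5 ± 13.2 and 67.5 ± 1.69 TPM.

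The receiving side of interleukin-1 was nearly bare. Il1r1, the signalling receptor, and Il1r2, its decoy, were listed at no more than 0.02 and 0.03 TPM in any library, and Il18r1 at no more than 0.02 TPM; these names were chosen after their values were seen. Il1rap, the shared accessory chain, was at 0.55, 0.12 and 1.81 TPM in the vehicle libraries and 2.24, 2.33 and 2.08 TPM in the treated libraries, without overlap. Sigirr, an inhibitory family member, was at 15.3 ± 1.26 and 18.2 ± 0.63 TPM, and Il18rap overlapped at 1.10 ± 0.789 and 2.12 ± 0.178 TPM (SD, n = 3 each). Of the 9 genes listed 4 were tested and 3 lay wholly above vehicle (Il1rap, Sigirr and Il1rl1); after median-ratio rescaling there were again 3, with Il18rap in place of Sigirr. Il1rl1 was named after its values were seen. Il1rap and Il1rl1 averaged 0.827 and 0.677 TPM with vehicle and entered the tested set only through their 25-HC values. Among 6 other IL-1 family ligands only Il36a was tested, at 2.44 ± 0.792 TPM with vehicle and 1.98 ± 0.45 TPM with 25-HC.

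The inflammasome and pyroptosis list held 15 tested genes of 19. Pycard, the adaptor ASC that links NLRP3 to caspase-1 and that RAW264.7 is known to lack, was listed at 0 in all 6 libraries; it was named after its value was seen. Of the 15, 8 lay wholly above vehicle and 1 wholly below, or 6 and 0 after median-ratio rescaling. Among the 8 were Naip5 and Nlrp1b, named after their values were seen, which averaged 0.89 and 0.82 TPM with vehicle and entered the tested set only through their 25-HC values. The median log2 difference was 0.72 as deposited, 0.13 after rescaling and 0.37 against vehicle 3 alone, against -0.071 for all genes in the last setting. Casp4, which encodes the intracellular lipopolysaccharide sensor caspase-11, measured 1.87, 1.02 and 1.48 TPM with vehicle and 4.25, 3.86 and 4.41 TPM with 25-HC. All treated libraries stood above the vehicle libraries (log2 difference 1.09, SE 0.27, limma adjusted p = 0.389; 1.82-fold after rescaling). Txnip, which binds thioredoxin and NLRP3, was at 78.7, 10.8 and 184 TPM in the vehicle libraries and 287, 272 and 291 TPM in the treated libraries. Ninj1, which ruptures the membrane late in pyroptosis, measured 176, 163 and 167 TPM with vehicle and 162, 155 and 157 TPM with 25-HC, slightly below without overlap, with overlap after rescaling.

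For the receptors and signalling of IL-6 and IL-10, all 8 genes were tested, 3 lay wholly above vehicle and 0 below, and the median log2 difference was 1.31, or 0.89 after rescaling, with 4 above and 0 below, and 0.09 against vehicle 3 alone. Jak1, the kinase of both receptors, was at 3.47, 1.13 and 7.83 TPM in the vehicle libraries and 12.3, 11.4 and 11.3 TPM in the treated libraries. Il10rb, the shared chain of the IL-10 receptor, was at 13.9, 1.31 and 24.4 TPM and 32.8, 33.5 and 32.3 TPM. Socs3, the feedback inhibitor of this pathway, overlapped at 25.1 ± 17.6 and 25.3 ± 0.886 TPM. In the TGF-β list, 8 of 16 were tested and 3 lay wholly above and 0 below, with a median of 1.10, or 0.68 after rescaling, with 4 above and 0 below, and 0.042 against vehicle 3 alone. Nrros, which tethers latent TGF-β1 on myeloid cells, measured 56.6, 14.9 and 87.2 TPM with vehicle and 108, 108 and 107 TPM with 25-HC. The receptor Tgfbr1 was at 0.77, 0.22 and 2.82 TPM and 3.15, 2.94 and 3.26 TPM, and the signal carrier Smad4 overlapped at 13.1 ± 9.24 and 24.9 ± 2.29 TPM.

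Of 21 other cytokines 7 were tested, 2 lay wholly above and 1 wholly below with a median of -0.052, or 2 and 4 after rescaling with a median of -0.68. Mif, a constitutive macrophage cytokine, was the most abundant at 4490 ± 731 TPM with vehicle and 4300 ± 62.0 TPM with 25-HC (SD, n = 3 each). Ebi3, a subunit of IL-27, was at 121, 94.1 and 114 TPM in the vehicle libraries and 88.3, 83.9 and 88.7 TPM in the treated libraries, below without overlap. Il16, a chemoattractant for CD4+ cells, was at 6.11, 2.05 and 8.97 TPM and 15.9, 16.5 and 16.6 TPM (limma adjusted p = 0.389), above without overlap and 2.16-fold after rescaling. All 12 regulators of cytokine mRNA stability were tested, with 1 wholly above, 0 below and a median of 0.60, or 0 above, 3 below and 0.057 after rescaling and a median of -0.31 against vehicle 3 alone. Hnrnpd, which binds AU-rich elements, overlapped at 108 ± 83.1 and 134 ± 2.94 TPM, as did Rc3h1 (roquin-1) at 59.8 ± 27.1 and 64.2 ± 4.33 TPM and Tia1 at 5.18 ± 2.76 and 8.95 ± 1.59 TPM.

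**Figure D4:**
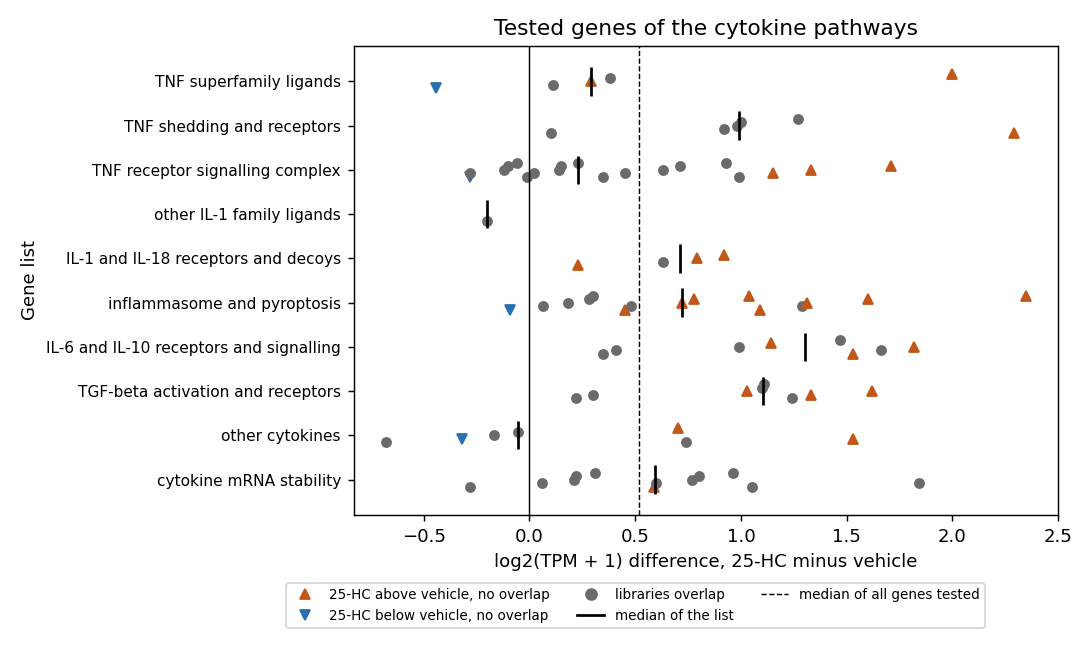
Log2(TPM + 1) difference between 25-HC and vehicle of each tested gene in the 10 lists, with triangles for genes whose groups do not overlap, circles for the rest, a bar for the median of each list and a dashed line for the median of all genes tested, 0.52. Medians lie on both sides of the dashed line, and Txnip and Adam17, at 2.35 and 2.29, lie farthest to the right.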

How the data were processed

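The deposited data are TPM values for each gene, rounded by the authors to 2 decimals. HISAT2, StringTie, RSEM and the build GRCm39 are named, without versions or roles, in the submitters' processing notes. Which annotation and strand setting were used is not given in the sources used here. A TruSeq RNA kit was used, per the labels' protocols. Groups came from the sample titles, 11 empty columns were ignored, and no libraries held identical values. A symbol shared by several rows stayed with the highest one. The 12092 genes averaging 1 TPM or more were fitted over all 6 libraries by limma 3.58.1 (R 4.3.3) as log2(TPM + 1). The settings were a variance trend, two-sided tests, Benjamini-Hochberg adjustment and a threshold of 0.05. The fit was tried on simulated data. How it behaves under the wider spread of the vehicle libraries and the length trend of vehicle 1 and 2 was not tested. Log2 differences understate changes of low genes. TPM keeps no depth, so no counting interval is given.

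Length and GC content came from the longest GENCODE M21 transcript, found for 92.1% of tested genes and used without coordinates. Promoters are from RefSeq (GRCm38.p6), another build than that of the table. Ratios were compared with exact permutation tests (scipy 1.17.1, Python 3.11.15). Named besides the members are, per list, the gene with the smallest p and the 2 highest in level, and the 3 nearest profiles; genes outside this rule are marked as picked later. Members and lists were chosen with earlier results of these data known. Protein sequences were not used here. Alternatives were pseudocounts of 0.1 and 5, dropping the filter or raising it to 5 TPM, median-ratio rescaling, quantile normalization, length correction (loess, span 0.75, degree 2), a replicate block, leaving out each library and vehicle 3 alone. Correction for GC content was added after seeing the data.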

Additional observations from a re-analysis of the deposited data

How the results depend on the processing

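No member passed in any setting with a test. The number of genes called higher was 1 as deposited and 0 with a pseudocount of 5, without a filter, with a filter of 5 TPM and with the replicate block, 4 after quantile normalization, 16 after length correction and 8 after GC correction. The number called lower was 0 as deposited, 1 after either median-ratio rescaling or quantile normalization, 3 after length correction and 2 after GC correction. Leaving out 1 library gave 0 to 671 higher and 0 to 51 lower, the largest numbers without vehicle 3. Over all genes tested, same-numbered libraries did not deviate together (r of -0.013, 0.056 and 0.03). These values cannot decide whether the numbers pair the libraries, because the wide spread of the vehicle libraries could hide a shared deviation. The replicate block changed no call of a member.

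Members wholly above vehicle numbered 0 after median-ratio rescaling, quantile normalization, length correction and GC correction, and those wholly below 2, 2, 1 and 2. Of all genes, 18.1% lay wholly below after median-ratio rescaling, 17.3% after quantile normalization and 18.7% after length correction. Among these settings, no share was taken below vehicle after GC correction, or above vehicle except after median-ratio rescaling (18.4%). Leaving out 1 library gave 2 to 5 above and 0 to 2 below. The 5 above came without vehicle 3, where 59.5% of all genes lay above. The 2 below came without vehicle 2, where 16.9% of all genes lay below. The median of the members was -0.14 after median-ratio rescaling, -0.19 after GC correction and -0.17 against vehicle 3 alone. Tgfb1 turned to -0.37, -0.013, -0.27 and -0.19 after median-ratio rescaling, quantile normalization, length correction and GC correction, and Casp1 to -0.14, -0.24 and -0.22 after the first, second and last of these. Leaving out 1 library moved Tnf from -0.0098 to 1.23. Against vehicle 3 alone Tnf was at -0.29, Il1rn at -0.17, Nlrp3 at -0.075 and the log2 ratio of Nlrp3 to Casp1 at -0.28. The ratios of Il1b to Tnf and of Il1rn to Il1b kept their direction in all 12 other settings, which rework the same libraries. The causes of these changes were not tested. The 3 members under 1 TPM are below what these values can compare.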

Other observations

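The genes given here, the IL-27 subunits Il27 and Ebi3 and the cytokine genes Lta and Il23a, were chosen after their values were seen, apart from Ebi3, and none passed the test. Of all genes tested, 22.6% lay wholly above and 8.1% wholly below vehicle as deposited, and 18.4% and 18.1% after median-ratio rescaling. Il27 measured 3.59, 2.19 and 4.13 TPM with vehicle and 1.26, 1.43 and 2.35 TPM with 25-HC, with overlap only between vehicle 2 and 25-HC 3 (log2 difference -0.68, limma adjusted p = 0.389). Its partner Ebi3 lay below vehicle in each treated library as deposited, at 0.793-fold (limma adjusted p = 0.394), and after median-ratio rescaling, at 0.477-fold. Il27 then lay below as well, at 0.332-fold. Lta, the neighbour of Tnf on its chromosome, was at 1.89, 1.88 and 1.38 TPM with vehicle and 1.09, 0.85 and 1.04 TPM with 25-HC. It lay below without overlap in both scalings (limma adjusted p = 0.389), whereas the groups of Tnf overlapped in both. The difference between these genes was not tested. Lta averaged 0.993 TPM with 25-HC and entered the tested set only through its vehicle values. Il23a, the specific subunit of IL-23, lay above vehicle without overlap (limma adjusted p = 0.389), at 1.70, 0.31 and 1.44 TPM and 2.38, 2.34 and 2.31 TPM. Il12b, the gene of its partner subunit, was listed at 0 in every library and was also named after its value was seen.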
